A study of Homo sapiens with 3 samples.

Results

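The comparison described here sets HSC-3 cells 24 hours after transfection with a DKK3 plasmid against untransfected HSC-3 cells. Its members were the genes with a probe detected on at least 1 of these arrays, 13722 of the 17556 genes named on the array. Counted by probe, 18110 of the 24454 gene probes kept were members. Of them, 17230 were detected on both arrays, 110 on the DKK3 array alone and 770 on the untransfected array alone. A gene symbol was available for 15407 member probes, and each gene's value is the mean over its detected probes. HSC-3 is an established human tongue squamous carcinoma line. The 3 groups, all in medium with 10% serum, were cells without transfection, cells that received a green fluorescent protein (GFP) plasmid and cells that received one for full-length DKK3 carrying an HA tag. Each group was 1 array of bulk RNA, so no difference below has a replicate error or a test, and precision is limited by there being 3 arrays. The DKK3 culture differed from the untransfected one in transfection, in the plasmid and in the expressed protein together, which cannot be told apart in this difference; the GFP array is given beside it. One treatment label also speaks of cultures of a mouse line, C2C12, whereas the other labels name the human tongue line.

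DKK3 encodes a secreted glycoprotein of the Dickkopf family, whose other members are known as Wnt antagonists that bind LRP co-receptors and Kremen proteins. Cells that take up foreign DNA can sense it in the cytosol and make type I interferon, which acts on genes with an interferon-stimulated response element. NF-kB is the parallel inflammatory pathway and acts on chemokine and cytokine genes. A cell that makes large amounts of a secreted protein uses the chaperones of the endoplasmic reticulum (ER), and ER stress raises them through XBP1 and ATF6.

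Spot intensities are scanner brightness units before normalization, and differences are on the log2 scale after normalization. Close readings can change order between the GFP and DKK3 arrays: WARS1 and HSP90AB1 below read higher on GFP but were higher on DKK3 after normalization. An offset of 50 was added to the intensities before log2 was taken, so differences of dim probes are understated. The blanks set a detection limit of 40.8 on the untransfected, 33.8 on the GFP and 36.6 on the DKK3 array. The median difference over the members was -0.005, with a robust SD of 0.0792 across probes, and the median over genes was -0.0049. Of the squamous epithelium markers 13 of 13 on the array were detected, with KRT5 at an intensity of 16548 on the untransfected and 12229 on the DKK3 array. Of the markers of other cells, 3 of 10 fibroblast, 6 of 9 endothelial, 5 of 9 leukocyte and 8 of 9 skeletal muscle genes were detected, with no list median beyond 0.04 in size. The fibroblast collagens COL1A1, COL1A2 and COL3A1 and the leukocyte gene PTPRC were below the limit. In bulk RNA, a different number of cells expressing a gene and a different amount of RNA per cell cannot be told apart.

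Position on the array moved with the differences. The array is printed in 24 blocks, and blocks 22 to 24 held 2275 members, 12.6% of all. Their median difference was -0.06 against 0.00 in blocks 1 to 21, and their robust SD was 0.117 against 0.0752. Rows 1 and 2 of the blocks held 21.6% of the members and 65 of the 120 probes at least 1.5-fold higher on the DKK3 array, and their median untransfected level was 7.40 against 6.70 in rows 3 to 10 (log2). The part of position in single values was not tested, so counts and medians without these spots stand beside the lists they moved by over 1.5 times.

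**Figure D1:**
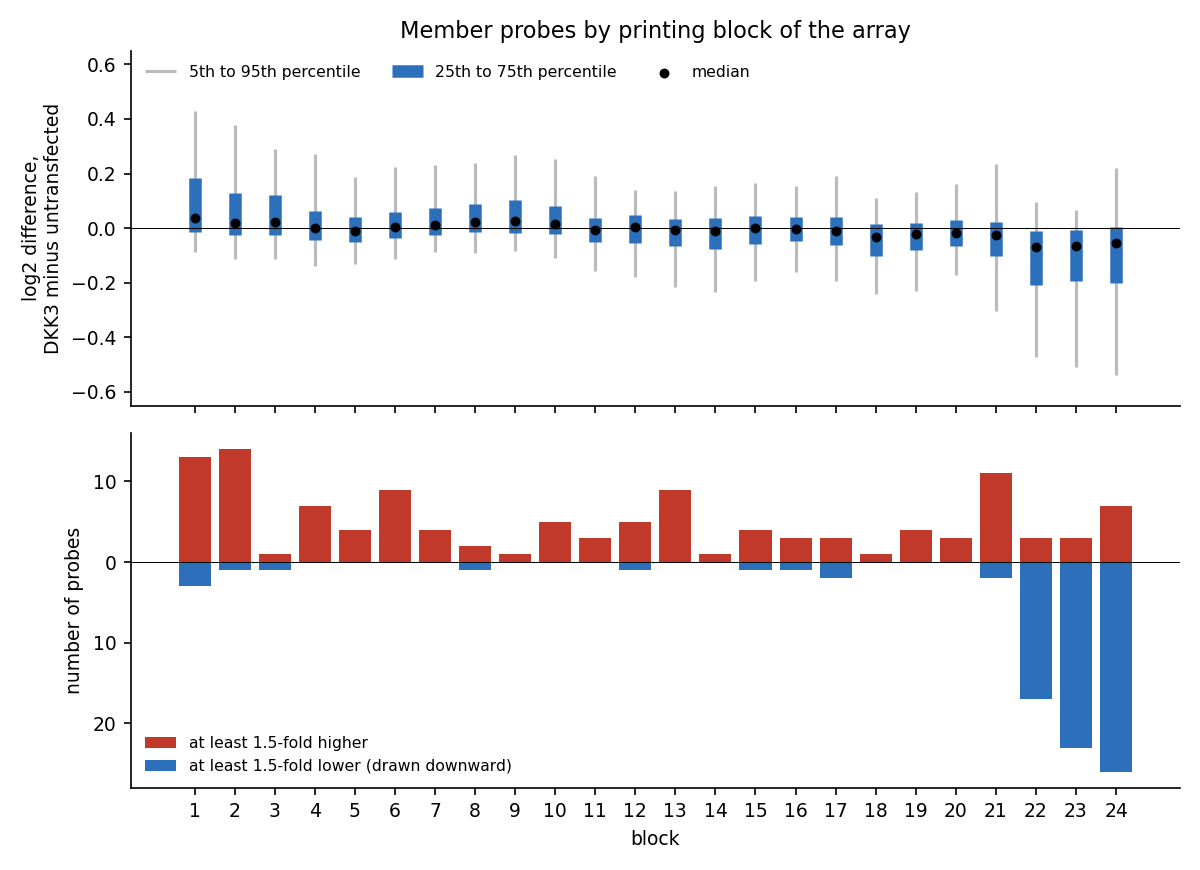
Top: log2 difference, DKK3 minus untransfected array, of the member probes in each printing block, with the median (points), the central 50% (thick bars) and the central 90% (thin bars). Bottom: number of probes at least 1.5-fold higher (up) or lower (down) in each block; blocks 22 to 24 hold 66 of the 79 lower probes.

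On the array labelled DKK3, 40 member probes were at least 2-fold higher (0.221% of members) and 13 at least 2-fold lower (0.0718%), 0.293% in either direction. At 1.5-fold, 120 probes were higher (0.663%) and 79 lower (0.436%). The 40 higher probes included 36 with a symbol, of 35 genes. Among these genes, 11 belonged to the lists of interferon-stimulated, sensor and antigen presentation genes, and 6 to the chemokine, cytokine and NF-kB lists. Those groups of lists held 96 and 58 of the 13722 genes. A gene counted here if any of its probes passed, and by gene mean the groups had 10 and 6. Of the 13 lower probes, 12 lay in blocks 22 to 24. At the 2-fold limit, PFDN6 at -1.01, HCRTR1 at 1.02 and TNFAIP3 at 1.03 were just inside, and PSMB4 at -0.99 and a second RIGI probe at 0.99 just outside.

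DKK3 checks the labels. Its single probe read 539 on the untransfected, 749 on the GFP and 64328 on the DKK3 array, a log2 difference of 6.42 and the highest among the members. The untransfected cells thus carried a DKK3 signal well above the detection limit. The reading of 64328 was the highest on its array, against highest readings of 36592 on the untransfected and 39362 on the GFP array. Quantile normalization averages these top values, so the size of 6.42 depends on that step. Of the other Dickkopf genes, DKK1 read 3879 on the untransfected, 4199 on the GFP and 4422 on the DKK3 array, a difference of 0.38. DKK2 and DKK4 were near the limit on all arrays, with differences of -0.01 each. Over the 19 detected genes of the Dickkopf family, its receptors and Wnt inhibitors the median difference was -0.01, as it also was without either set of spots, and 7 of 19 were above 0. The Wnt co-receptor gene LRP6 differed by -0.02, and KREMEN2, a Dickkopf receptor gene in block 22, by -0.62.

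**Figure D2:**
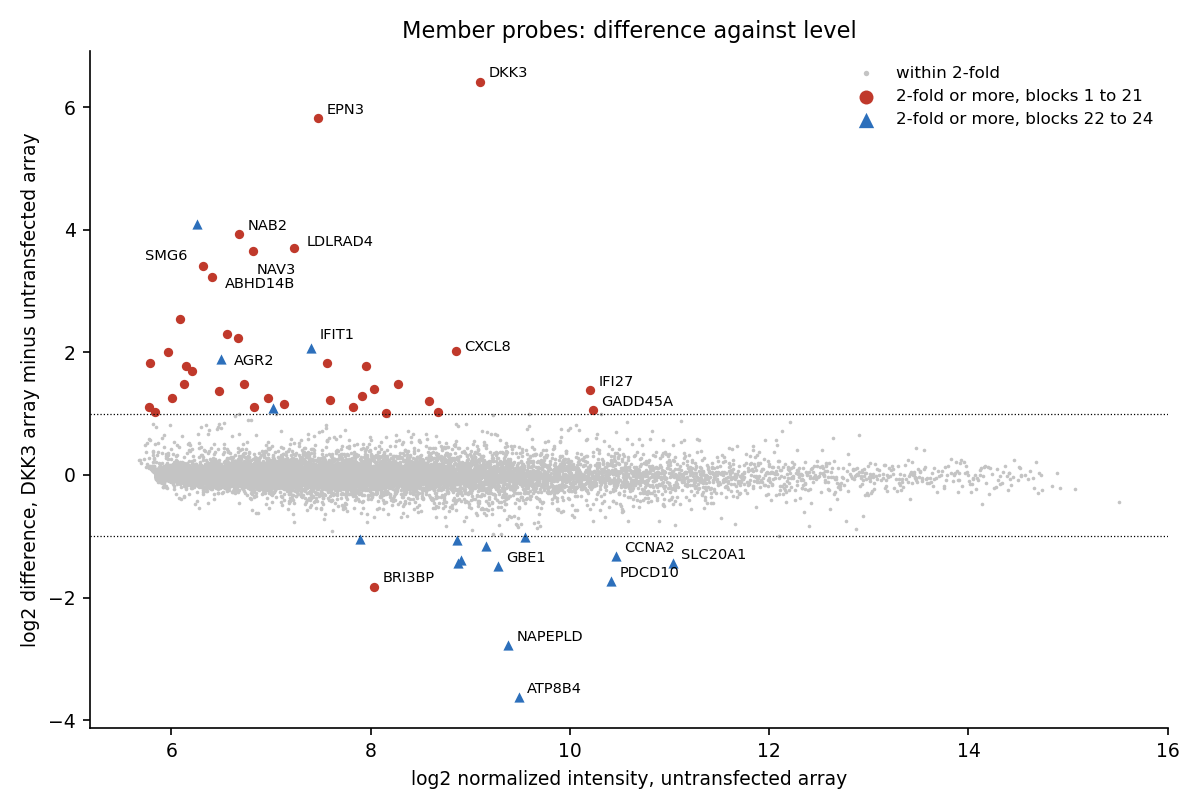
Each point is a member probe, with its log2 normalized intensity on the untransfected array on the x axis and the log2 difference, DKK3 minus untransfected, on the y axis. Dotted lines mark 2-fold; DKK3 lies at 6.42, and 12 of the 13 probes below the lower line are triangles, from blocks 22 to 24.

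The antiviral effectors of the IFIT, OAS and MX families were the list with the highest median. Of 11 detected genes, 10 were above 0, 8 were at least 1.5-fold and 6 at least 2-fold higher on the DKK3 array, with a median of 1.03. Over all 13722 genes, 47.1% were above 0, 0.714% were 1.5-fold and 0.233% 2-fold higher. The IFIT proteins bind viral RNA and block its translation. IFIT1 read 154 on the untransfected, 970 on the GFP and 645 on the DKK3 array, a difference of 2.08. IFIT3 read 174 on the untransfected, 791 on the GFP and 603 on the DKK3 array, a difference of 1.83. Both transfected arrays were thus above the untransfected one, with GFP the highest. IFIT2 had 2 detected probes, at 1.25 and 0.89. MX1, a GTPase that traps viral nucleocapsids, read 47.8, 163 and 125 in the same order of arrays, a difference of 1.26. MX2 was at least 2.05-fold higher by a probe that was below the limit on the untransfected array, and its second probe differed by 0.82. The OAS enzymes make the 2-5A that activates RNase L. OAS1 read 114, 357.5 and 239 on the untransfected, GFP and DKK3 arrays, a difference of 1.10, and OASL was at least 2.03-fold higher. OAS3 at 0.83, OAS2 at 0.40 and IFIT5 at 0.37 were smaller. RSAD2, the antiviral enzyme viperin, read 82.6, 75.7 and 73.2, a difference of -0.01, and was the member without a higher signal on the transfected arrays. Without rows 1 and 2, 7 genes remained, 4 of them past 1.5-fold and 3 past 2-fold, with a median of 0.82. Without blocks 22 to 24, 8 genes had a median of 0.99.

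Promoter sequence from RefSeq (GRCh38.p14) is shown for 4 genes of the antiviral and other interferon-stimulated lists, since their genes were high together. The genes shown have the largest differences in these lists among those whose window holds at least 2 matches to the interferon-stimulated response element. MX1 and IFI44, which differed by more than ISG15, hold 1 match each and are not shown. The window runs from 250 bases before to 50 after each gene's start, and the motif was searched on both strands as GAAA, then NN, then GAAA. Capitals mark each match, a match on the other strand reads TTTC, NN and TTTC, and adjoining matches can overlap, as in ISG15.
IFIT1 (chr10:89392492-89392544, + strand): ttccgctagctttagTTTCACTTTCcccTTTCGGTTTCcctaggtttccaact
IFIT3 (chr10:89327826-89327899, + strand): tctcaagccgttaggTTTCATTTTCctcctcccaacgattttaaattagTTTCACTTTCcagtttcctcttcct
IFI27 (chr14:94110613-94110665, + strand): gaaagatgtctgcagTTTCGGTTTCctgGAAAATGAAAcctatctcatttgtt
ISG15 (chr1:1013369-1013414, + strand): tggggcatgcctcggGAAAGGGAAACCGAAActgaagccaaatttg
The motif occurred in 3.65% of the 27305 promoter windows of the table and in 2.84% of those of detected genes. It occurred in 5 of the 7 antiviral genes with a window (IFIT1, IFIT3, IFIT5, MX1 and OAS3) and in 27 of 41 other interferon-stimulated genes. Among antigen presentation genes 9 of 13 windows held it, and among sensor and interferon signalling genes 4 of 16. A match is a description of the letters, not of binding.

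Of 47 other interferon-stimulated genes detected, 46 were above 0, 10 were at least 1.5-fold and 2 at least 2-fold higher, with a median of 0.34. IFI27, a mitochondrial and nuclear envelope protein, read 1161 on the untransfected, 3991 on the GFP and 2759 on the DKK3 array, a difference of 1.39. IFI44 differed by 1.16. ISG15, the ubiquitin-like modifier, read 590.2, 1523 and 1074 in the same order, a difference of 0.97, and USP18, the protease that removes it, also differed by 0.97. IFI6 read 158.5 on the untransfected, 755 on the GFP and 230.1 on the DKK3 array. The DKK3 reading thus lay between the others, nearer the untransfected one. IFI6 differences from the untransfected array were 2.08 for GFP and 0.63 for DKK3, and the IFI6 spot lies in row 1 of block 22. The tetherin gene BST2 differed by 0.73 and TRIM22 by 0.67. GBP2, at -0.10, was the lowest. Most of the larger differences lay in rows 1 and 2: without them 31 genes remained, 30 above 0, 3 past 1.5-fold and 1 past 2-fold, with a median of 0.27.

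Of 23 detected nucleic acid sensor and interferon signalling genes, 17 were above 0 with a median of 0.12. The 2-fold members were IRF7, the factor that amplifies interferon transcription, at 1.10, and RIGI, a cytosolic sensor of RNA, with probes at 1.11 and 0.99. The transcription factor genes IRF9 at 0.74 and STAT2 at 0.57 lay above 0 without reaching 2-fold. CGAS, the cytosolic DNA sensor, lay at -0.39 in block 22, with 324 on the untransfected, 302 on the GFP and 219 on the DKK3 array. IFNL1, IFNL3 and ZBP1 were below the limit on both arrays. Without rows 1 and 2, 10 genes remained, with 1 past 1.5-fold and 2-fold and a median of 0.06. Of 15 detected genes of MHC class I and peptide loading, 12 were above 0 and 0 passed 1.5-fold, with a median of 0.15. The peptide transporter gene TAP1 at 0.47 and HLA-F at 0.43 were the highest.

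Of the chemokines, 12 were detected and 10 lay above 0; 4 were at least 1.5-fold and 3 at least 2-fold higher, with a median of 0.27. CXCL8, CXCL2 and CXCL1 encode attractants of neutrophils that act on the receptor CXCR2. CXCL8 read 451.5 on the untransfected, 1198 on the GFP and 1724 on the DKK3 array, a difference of 2.03. CXCL2 read 233 on the untransfected, 556 on the GFP and 764 on the DKK3 array, a difference of 1.77. CXCL1 read 246, 481 and 618.5 in that order, a difference of 1.40. In these genes the DKK3 array was the highest and the GFP array lay between, whereas in IFIT1 and IFIT3 the GFP array was the highest. CXCL3 differed by 0.76, and CXCL10, an interferon-responsive chemokine below the limit on the untransfected array, was at least 1.30-fold higher. CXCL9, CXCL11, CCL2 and CCL5 were below the limit on both arrays. Without rows 1 and 2, where 8 of the 12 genes lie, the 4 left had a median of 0.81 and 2 of them passed 2-fold.

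Of 20 detected cytokines and colony-stimulating factors, 18 were above 0, 5 were at least 1.5-fold and 2 at least 2-fold higher, with a median of 0.12. CSF2, the factor GM-CSF, read 295 on the untransfected, 659 on the GFP and 788 on the DKK3 array, a difference of 1.49. IL6 read 72.4, 166 and 194 in that order, a difference of 1.36. TNF differed by 0.85, IL1A by 0.65 and IL24 by 0.62. IL1B, in row 1 of block 23, read 2131, 2217 and 1105, a difference of -0.81 against the direction of the rest. Both 2-fold genes lay in rows 1 and 2, and the 8 genes outside those rows had 1 past 1.5-fold and a median of 0.08.

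Of 26 detected NF-kB subunits, regulators and feedback genes, 21 were above 0, 4 were at least 1.5-fold and 1 at least 2-fold higher, with a median of 0.09. TNFAIP3, the feedback inhibitor A20, read 396 on the untransfected, 594 on the GFP and 752 on the DKK3 array, a difference of 1.03. BIRC3, an inhibitor of apoptosis, differed by 0.81, SOD2, the mitochondrial superoxide dismutase, by 0.74 and the adhesion gene ICAM1 by 0.66. The subunit genes RELB at 0.45 and NFKB1 at 0.39 were smaller. Without rows 1 and 2, 7 of these genes remained, with a median of 0.03 and 0 past 1.5-fold.

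Promoter stretches are shown for the 2-fold higher inflammatory genes with a match to the NF-kB motif, since CXCL1 and CXCL2 hold the same pair of matches. For CSF2, also 2-fold higher at 1.49, no match was found. The motif was searched as GGNNTTTCC on both strands, so that a match on the other strand reads GGAAANNCC, and its TTTC letters can overlap the response element above.
CXCL8 (chr4:73740463-73740501, + strand): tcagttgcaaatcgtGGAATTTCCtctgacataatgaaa
CXCL2 (chr4:74099225-74099287, - strand): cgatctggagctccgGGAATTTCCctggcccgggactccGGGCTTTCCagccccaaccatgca
CXCL1 (chr4:73869300-73869363, + strand): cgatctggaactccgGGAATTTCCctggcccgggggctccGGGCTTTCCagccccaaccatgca
IL6 (chr7:22727113-22727151, + strand): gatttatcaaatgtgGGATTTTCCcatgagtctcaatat
TNFAIP3 (chr6:137867177-137867227, + strand): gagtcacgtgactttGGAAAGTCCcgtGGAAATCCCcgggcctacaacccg
It occurred in 6.26% of all promoter windows and in 6.71% of those of detected genes. Among chemokines 8 of 10 windows held it, among the NF-kB list 9 of 22, and among cytokines 3 of 16. The differences of the holders not shown ran from -0.27 for REL to 0.81 for BIRC3, with CXCL5 at 0.04 and NFKBIA at -0.04.

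**Figure D3:**
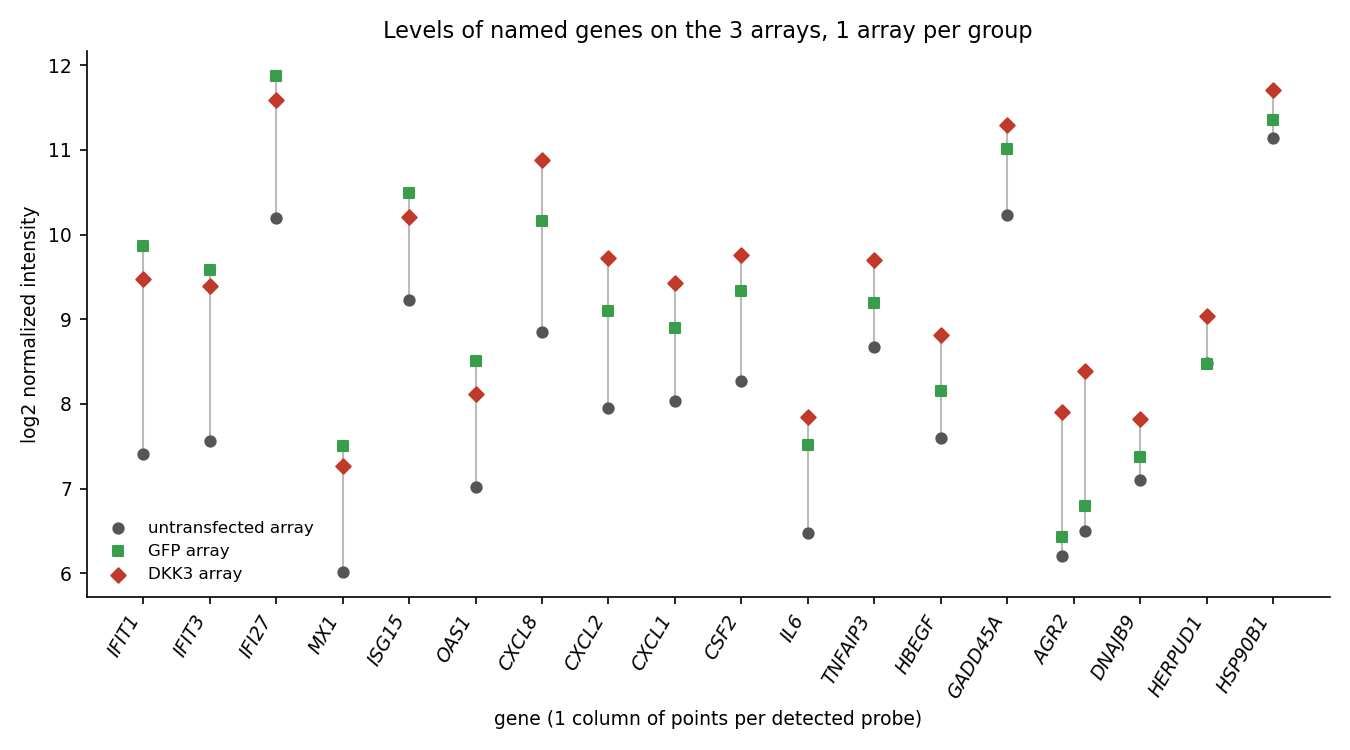
log2 normalized intensity of named genes on the untransfected (circles), GFP (squares) and DKK3 (diamonds) arrays, 1 array per group and 1 column of points per detected probe. The GFP array is the highest for IFIT1, IFIT3, IFI27, MX1, ISG15 and OAS1, and the DKK3 array is the highest for the genes from CXCL8 to HSP90B1.

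Among growth factor genes, HBEGF, a ligand of the EGF receptor, was at least 2-fold higher. It read 178 on the untransfected, 275 on the GFP and 396 on the DKK3 array, a difference of 1.22. Of the 13 detected EGF ligands and ERBB and MET receptors, 8 were above 0, with a median of 0.13. MET, the receptor of hepatocyte growth factor, read 304, 237 and 336, so that the GFP array was the lowest and the difference was 0.28. EGFR differed by -0.16. HBEGF lies in row 1, and among the 7 genes outside rows 1 and 2 the median was 0.14 with 0 past 1.5-fold. The Notch ligand JAG1 had the same order of arrays, with 156, 126 and 193 and a difference of 0.42. EFNA1, an ephrin, differed by 0.80 and VEGFC, a lymphatic growth factor, by 0.57, while SEMA3C, a semaphorin, had the list's largest difference in size at -0.89 in block 23. The 28 detected ephrin, VEGF and Notch genes had a median of 0.00 with 14 of 28 above 0, which became 0.05 without blocks 22 to 24 and -0.03 without rows 1 and 2, where EFNA1 lies. INHBA, the activin A subunit, differed by 0.83.

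Of 36 detected immediate-early and MAPK feedback genes, 28 were above 0 with a median of 0.09, and DUSP1, a MAPK phosphatase, passed 1.5-fold at 0.68. Next were ATF3 at 0.53, PHLDA1 at 0.51 and FOS at 0.46, while EGR1 lay at -0.23. The 13 genes outside rows 1 and 2 had a median of 0.15 with 0 past 1.5-fold. Of 18 detected genes of the plasminogen system and matrix proteases, 14 were above 0 with a median of 0.17. The plasminogen activator inhibitor gene SERPINB2 differed by 0.82 and the urokinase receptor gene PLAUR by 0.74, both in rows 1 and 2 and in blocks 22 to 24. By gene mean over all detected probes, no other gene of the list passed 1.5-fold. Without blocks 22 to 24, 14 genes had a median of 0.15 with 1 past 1.5-fold. Without rows 1 and 2, 7 genes had a median of 0.14 with 1 past 1.5-fold. PLAU, the urokinase itself, had probes at 0.86 and 0.19, of which the second read 8353 on the untransfected and 8291 on the DKK3 array. The collagenase gene MMP1 differed by 0.49 and 0.14 on its probes.

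Among p53 targets, GADD45A, a growth arrest gene, read 1188 on the untransfected, 2172 on the GFP and 2236 on the DKK3 array, a difference of 1.06. CDKN1A, the inhibitor p21, differed by 0.40, DDB2 in block 22 by -0.66, and the 23 detected targets had a median of 0.04. That median was 0.08 without blocks 22 to 24 and -0.01 over the 9 genes outside rows 1 and 2, which leave out GADD45A. Of 18 detected NRF2 targets, 15 were above 0 with a median of 0.15. AKR1C2, an aldo-keto reductase, read 748, 1640.3 and 1372, a difference of 0.99. NQO1, a quinone reductase, differed by 0.48, and ME1 in block 23 by -0.96. HSP90AB1, a cytosolic chaperone, read 2233, 3951 and 3702, a difference of 0.89, while the 17 detected heat shock genes had a median of 0.03, or 0.07 without blocks 22 to 24 and 0.08 over the 3 genes outside rows 1 and 2. AKR1C2 and HSP90AB1, the genes past 1.5-fold in their lists, both lie in row 1.

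Of 35 detected ER chaperones, ER-associated degradation genes and stress sensors, 32 were above 0 and 3 passed 1.5-fold, with a median of 0.19. DNAJB9, a co-chaperone of the ER, read 121 on the untransfected, 147 on the GFP and 192 on the DKK3 array, a difference of 0.72. CRELD2 differed by 0.63 and SDF2L1, a part of ER chaperone complexes, by 0.59. XBP1, the stress factor itself, read 766.5, 1095.5 and 1072.5, a difference of 0.58. HSP90B1, the ER form of HSP90, differed by 0.56. HERPUD1, of ER-associated degradation, read 345, 348 and 466, so that only the DKK3 array stood apart, at 0.56. DNAJB11 differed by 0.53 and MANF by 0.47. The main ER chaperone gene HSPA5 read 86.1, 89.6 and 89.4 and differed by 0.18. In the neighbouring translocon, glycosylation, COPI and COPII list 30 of 40 genes were above 0 and 0 passed 1.5-fold, with a median of 0.11 and SPCS3, of the signal peptidase, highest at 0.57. Without rows 1 and 2, 24 ER chaperone genes had a median of 0.18, with 22 of 24 above 0. DDIT3, the stress factor CHOP, read 274, 434.5 and 499, a difference of 0.96, while the 26 detected ATF4 response genes had a median of 0.03, or 0.05 without blocks 22 to 24, and 1 in place of 2 past 1.5-fold without rows 1 and 2.

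Promoter stretches are shown for some of the ER genes that hold an ER stress element, since these motifs are rare outside the group. The genes shown are among the holders with the larger differences, from 0.56 to 0.63. The first element was searched as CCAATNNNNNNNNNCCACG and the second as ATTGG, N and CCACG, on both strands, and they share the letters CCACG.
HERPUD1 (second element, chr16:56932010-56932050, + strand): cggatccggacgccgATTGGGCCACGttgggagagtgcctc
SDF2L1 (second element, chr22:21642099-21642139, + strand): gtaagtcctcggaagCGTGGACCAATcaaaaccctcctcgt
CRELD2 (first element, chr22:49918539-49918587, + strand): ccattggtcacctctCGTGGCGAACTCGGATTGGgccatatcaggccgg
XBP1 (first element, chr22:28800588-28800636, - strand): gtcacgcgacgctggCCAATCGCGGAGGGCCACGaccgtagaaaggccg
The first element occurred in 0.0806% of all promoter windows, in 0.145% of those of detected genes and in 7 of 31 windows of the ER chaperone list. The second occurred in 0.0549%, in 0.108% and in 3 of 31. Of the holders not shown, HSP90B1 differed by 0.56, CANX by 0.24, HYOU1 by 0.19, HSPA5 by 0.18, CALR by 0.16 and ERO1B by 0.11.

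AGR2, a protein disulfide isomerase of the ER that is known for mucin folding, was at least 2-fold higher on both of its probes. The first read 73.9 on the untransfected, 89.0 on the GFP and 291 on the DKK3 array, a difference of 1.89. The second, in another block, read 57.1, 62.7 and 203, a difference of 1.69. Over the 18 detected disulfide isomerase and AGR genes, AGR2 included, the median difference was 0.02, with PDIA4 next at 0.39. It was 0.05 without blocks 22 to 24 and 0.01 without rows 1 and 2.

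A further set of probes was high on the DKK3 array and alike on the other arrays. EPN3, an epsin of endocytosis, read 162 on the untransfected, 191 on the GFP and 8801 on the DKK3 array, a difference of 5.82. Its spot has column 56 and row 9 of block 2, and the DKK3 spot has the same column and row in block 6. At the other 22 blocks' spots of that column and row the differences ran from -0.38 to 0.16. NAB2, a co-repressor of EGR factors, read 86.1, 82.7 and 1422.5, a difference of 3.93. NAV3, a microtubule-binding protein, differed by 3.66, SMG6, a nuclease of nonsense-mediated decay, by 3.40, the kinase gene DYRK4 by 2.24 and ABHD14B by 3.23. OR7A10 at 1.77, TMPRSS13 at 1.48, RAD17 at 1.29 and HCRTR1 at 1.02 followed. Their differences of GFP from untransfected lay between -0.15 and 0.21. These genes had 1 detected probe each. NAV3 also had a second probe, which was below the limit on all 3 arrays, at 38.2, 29.7 and 35.8, and so did not show the rise. AGR2 above, also high mainly on the DKK3 array, had probes that went together, at 1.89 and 1.69. Those of LDLRAD4, XYLT2 and RTKN did not. LDLRAD4 differed by 3.70 and -0.02, and its second probe was near the detection limit, at 50.1, 41.9 and 43.0. XYLT2 differed by 1.48, 0.01 and -0.17, and RTKN by 1.21 and -0.25. COQ5, of coenzyme Q synthesis, read 78.1, 432 and 407 on one probe, a difference of 2.29, and 349, 399 and 341 on the other, a difference of 0.11. Another 4 higher probes had no symbol.

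On the lower side, 11 genes had a probe at least 2-fold lower on the DKK3 array, and 10 of them had it in blocks 22 to 24. The cell division genes LMNB1, CCNA2 and NCAPH were among them. LMNB1, the nuclear lamin B1, read 468.5 on the untransfected, 249 on the GFP and 153 on the DKK3 array, a difference of -1.38. CCNA2, cyclin A2, read 1396, 1093 and 499, a difference of -1.32. NCAPH, a condensin subunit, read 561, 362 and 219, a difference of -1.16. On all of them the GFP array lay between. PDCD10 differed by -1.74 with GFP at 0.20, GBE1 by -1.48 and KCNMA1 by -1.04. SLC20A1 differed by -1.43 in block 23 and by -0.19 on its probe in block 6, and PFDN6 by -1.01 in block 24 and by -0.11 in block 15. ATP8B4, at least 12.2-fold lower, and NAPEPLD at -2.78 are neighbouring spots of block 23 that were bright on the untransfected array alone, with 701.5, 35.1 and 36.2 for ATP8B4 and 655.5, 68.5 and 72.2 for NAPEPLD. BRI3BP, in block 2, was the only 2-fold lower gene elsewhere, with 247, 195 and 50.8 and a difference of -1.82.

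Of 41 detected genes of mitosis, condensin and the nuclear lamina, 6 were above 0, and the median was -0.14, the lowest of the lists. Of the 13722 genes, 0.445% were at least 1.5-fold and 0.0656% at least 2-fold lower, against 4 and 3 of these 41. Without blocks 22 to 24, 34 genes had a median of -0.09 with 7 above 0, and without rows 1 and 2, 20 genes had -0.08 with 2 above 0. There KIF11, a spindle motor, read 694.5, 524 and 476.5, a difference of -0.40, and KIF23 differed by -0.30. The cyclin B1 gene CCNB1 differed by -0.52 in block 24 and by -0.18 in block 4. BUB1, a spindle checkpoint kinase, went the other way at 0.38. The 29 detected DNA replication genes had a median of -0.07, with CDC45 at 0.35 and RFC2 in block 24 at -0.44, and -0.05 without blocks 22 to 24.

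Outside blocks 22 to 24, some lower genes were seen on separate probes. KRT15, a basal keratin, read 692.7 on the untransfected, 611 on the GFP and 351 on the DKK3 array on one probe, a difference of -0.82, and 958, 946 and 580.5 on the other, a difference of -0.59. The water channel gene AQP3 had probes at -0.84 and -0.76. KRT19 differed by -0.36, and of 17 detected keratins 4 were above 0, with a median of -0.05, or -0.12 over the 9 outside rows 1 and 2. In cholesterol synthesis, 7 of 24 genes were above 0 with a median of -0.06. The sterol sensor partner INSIG1 read 387, 336 and 238, a difference of -0.53, IDI1 differed by -0.49, SQLE by -0.33 and FDFT1 by -0.29, while SREBF2 lay at 0.51. Leaving out rows 1 and 2 left 13 of these genes, with a median of -0.24 and 1 above 0. The sterol element, searched as TCACNCCAC, occurred in 1 of 21 windows of the list and in 1.15% of all.

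**Figure D4:**
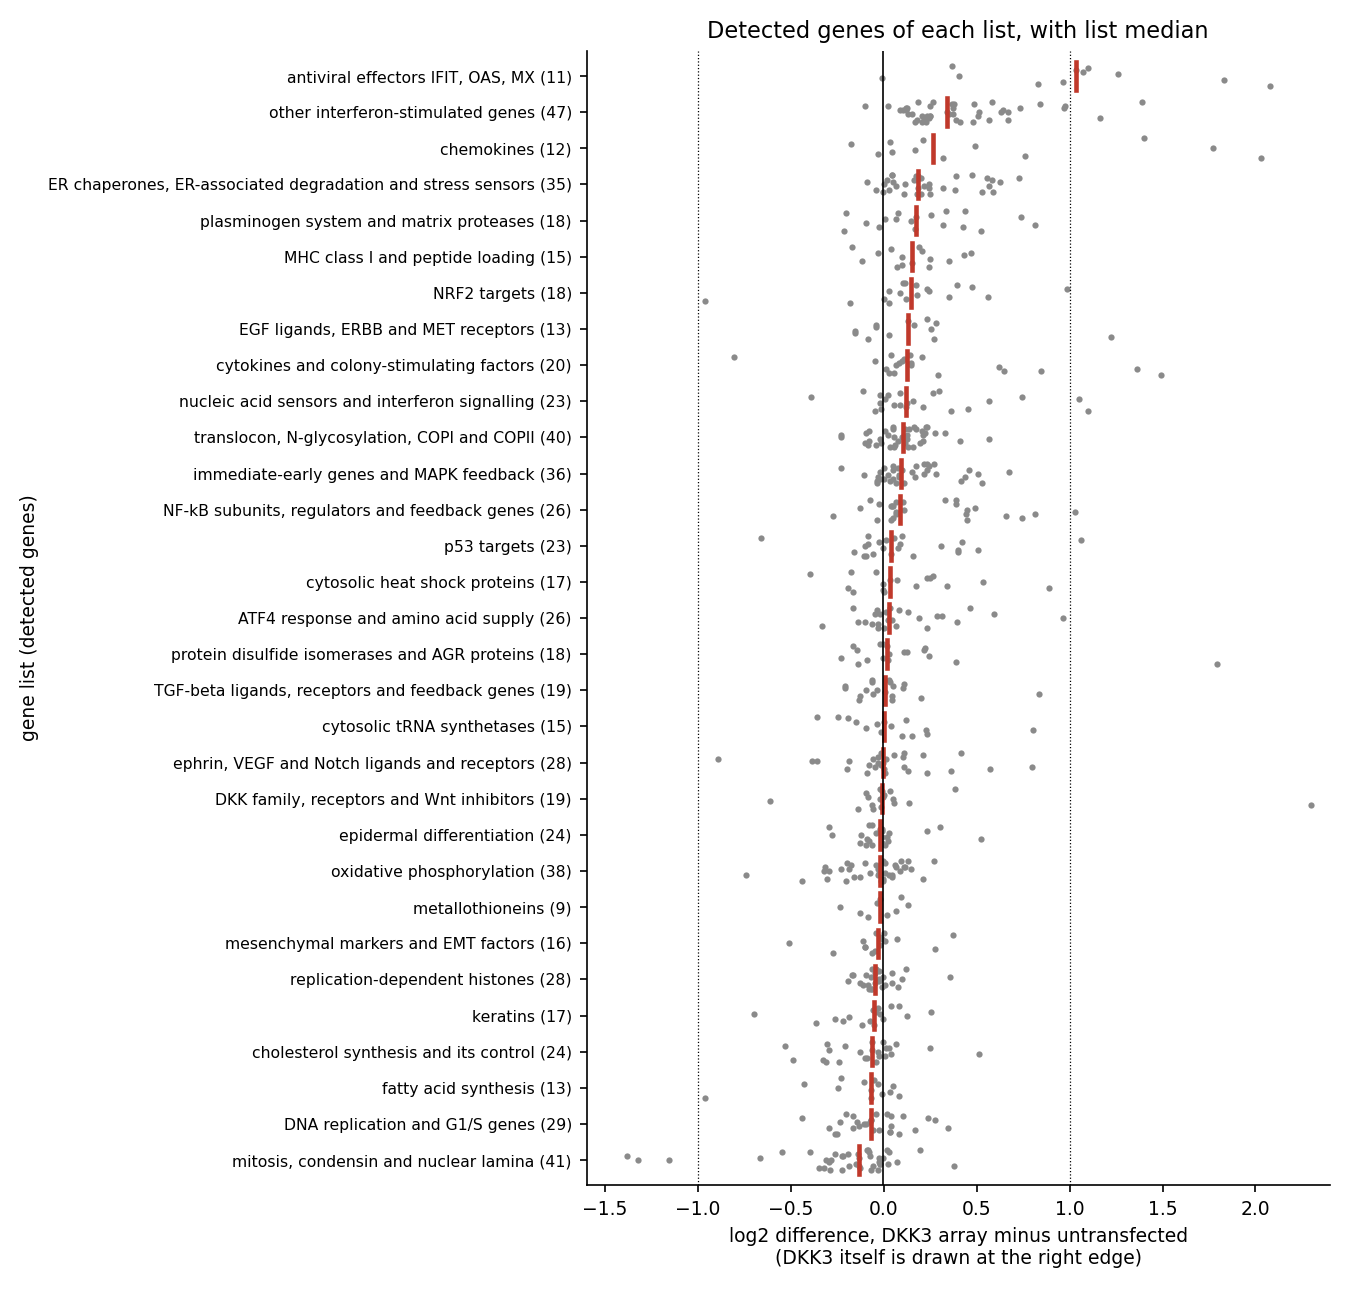
Each grey point is a detected gene and each red bar the median of its list, as the log2 difference DKK3 minus untransfected array; the solid line marks the median of all genes and dotted lines mark 2-fold. The antiviral effectors have the highest median, 1.03, and the mitosis list the lowest, -0.14.

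Other lists stayed near the median of all genes, with medians of 0.01 for TGF-beta genes, 0.00 for cytosolic tRNA synthetases, -0.02 for epidermal differentiation, -0.03 for mesenchymal and EMT genes, -0.02 for oxidative phosphorylation, -0.02 for metallothioneins, -0.05 for replication-dependent histones and -0.07 for fatty acid synthesis. Without either set of spots these medians lay between -0.07 and 0.06. Within them single genes stood out. WARS1, the tryptophanyl-tRNA synthetase, which interferon is known to induce, read 459 on the untransfected, 804 on the GFP and 741 on the DKK3 array, a difference of 0.80 at a spot in rows 1 and 2.

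Families were also formed by symbol, from genes that share the letters before the first digit. Of 617 families with at least 4 detected genes, IFIT had the highest median at 1.07, followed by IFI at 0.63, CXCL at 0.49 and the disulfide isomerases PDIA at 0.22. Leaving out rows 1 and 2 drops some of these genes and probes, and no kept probe changes its value. The medians of the genes left were 0.81 for IFIT, 0.24 for IFI and 1.40 for CXCL. With the blanks' mean subtracted as background, CXCL reached 1.45. DKK ranked next at 0.19, the midpoint between DKK1 and DKK2, so that the size of the DKK3 difference does not enter it. The splicing kinases CLK1 at 0.30, CLK4 at 0.20, CLK2 at 0.15 and CLK3 at 0.10 were all above 0, with a family median of 0.18. In the DNAJB co-chaperones, 6 of 9 were above 0, led by DNAJB9 and DNAJB11. In SRP, the signal recognition particle, 5 of 6 were above 0, led by SRP54 at 0.39 and SRP68 at 0.26. The GJB, BNIP, GADD and SCAMP families followed, with medians from 0.12 to 0.17. At the other end, RFC, the clamp loader of DNA replication, had a median of -0.26 with 0 of 5 genes above 0. Its lowest genes RFC2 at -0.44 and RFC1 at -0.35 have probes in blocks 22 to 24. The other RFC1 probe, in block 14, differed by -0.33, and over 12 alternatives the RFC median ran from -0.30 to -0.20. HMGB also lay at -0.26, and it holds pseudogene symbols whose signal can be shared with HMGB1. HMGN and PCBP had medians of -0.19 and RWDD, PRRC, TENT, PANK, SMARCA, TPM, PTK and UQCC medians from -0.18 to -0.14. Without blocks 22 to 24, the medians were -0.05 for HMGB, 0.00 for TENT, which lost its direction, -0.08 for PRRC, -0.02 for TPM and UQCC, and 0.03 for GJB above. Leaving out rows 1 and 2 gave -0.06 for HMGN, -0.16 for HMGB and -0.03 for TENT.

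The difference described here is the sum of GFP minus untransfected and DKK3 minus GFP. These comparisons share arrays, so their values are set side by side as a description. For the antiviral effectors the medians were 1.13 for GFP minus untransfected and -0.15 for DKK3 minus GFP. For the chemokines they were 0.19 and 0.09, with both steps positive for CXCL8 at 1.31 and 0.72, and for CXCL2 at 1.14 and 0.63. For the ER chaperone list they were 0.00 and 0.16, and for the translocon list -0.07 and 0.12. For mitosis they were -0.26 and 0.08, and for cholesterol synthesis 0.03 and -0.12. The 4 families with the highest medians had unlike steps: IFIT had 1.16 and -0.09, IFI 0.90 and -0.11, CXCL 0.40 and 0.10, and PDIA -0.03 and 0.17.

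**Figure D5:**
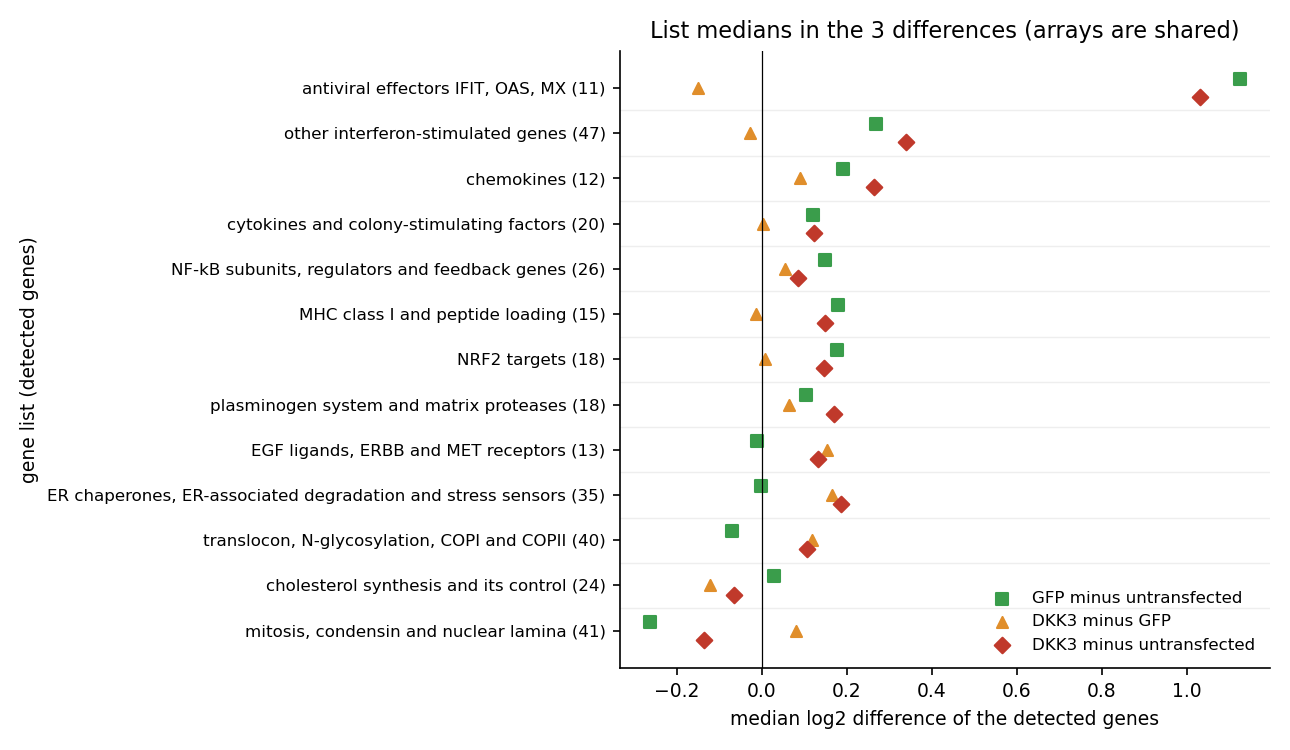
Median log2 difference of the detected genes of 13 lists for GFP minus untransfected (squares), DKK3 minus GFP (triangles) and DKK3 minus untransfected (diamonds). The antiviral effectors lie at 1.13, -0.15 and 1.03 and the ER chaperone list at 0.00, 0.16 and 0.19.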

How the data were processed

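Total RNA of 3 HSC-3 cultures was amplified, coupled to Cy5 and hybridised to 1-colour arrays, 1 per group, per the labels. Per the file headers, the deposited values used are spot median intensity, combined from 3 scanner gains. A value table, also deposited, holds intensity on a linear scale with a median of 25 per array, and served as an alternative. From the spot median, background was corrected with normexp (offset 50) in limma 3.58.1 (R 4.3.3), control and 6 faulty spots were removed, the 3 arrays were quantile normalized and log2 was taken. Normalization was tested on simulated data. Each array had 27456 spots. A probe was detected above the mean plus 2 SD of the blanks, and higher or lower meant at least 2-fold, a rule of size. "At least N-fold" sets a probe detected on 1 side against a bound on the other: its own value there or, if higher, that array's lowest detected value. Symbols came from the platform annotation: 17234 kept probes had a current RefSeq symbol, 2898 one updated through a synonym, 99 stayed as annotated and 4223 had none. Members and the 31 gene lists were chosen with earlier results of these data known. The named genes were DKK3, all 2-fold genes, up to 8 members per list with the largest differences and the families described. A few further members of lists, and AQP3, were named after their values were seen. Alternatives varied background correction, normalization, detection, probe averaging, value table and array position.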

Additional observations from a re-analysis of the deposited data

How the results depend on the processing

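DKK3 kept its side under all 14 alternatives, with differences from 6.41 to 7.18. The alternatives that only change the detection filter or leave out spots could not change its value. Of 537 recomputed list medians 494 stayed within 0.0822 (the robust SD across genes) of the reported one, after subtracting each setting's shift of all genes, and 0 that lay beyond this SD from 0 changed direction; of 303 family medians 262 stayed. Lists with medians nearer 0 took either sign: ephrin, VEGF and Notch from -0.031 to 0.046, tRNA synthetases from -0.039 to 0.056, p53 targets from -0.028 to 0.098, TGF-beta from -0.054 to 0.075, metallothioneins from -0.082 to 0.032, the Dickkopf list from -0.039 to 0.313, and the fibroblast, skeletal muscle and squamous markers. Most larger moves came with settings that add less to dim signals, which by construction gives dim probes larger differences. With a normexp offset of 16, 71 probes were 2-fold higher and 20 lower, and the medians were 1.35 for antiviral effectors, 0.43 for other interferon-stimulated genes, 0.50 for chemokines, 0.24 for cytokines, 1.08 for CXCL, 0.74 for IFI and 1.35 for IFIT. With the blanks' mean subtracted, the counts were 123 and 52, and the medians 1.60 for antiviral effectors and IFIT, 0.56 for other interferon-stimulated genes, 0.31 for sensors, 1.21 for chemokines, 0.40 for cytokines, 0.20 for immediate-early genes, 0.26 for EGF and MET, 0.38 for proteases, 0.32 for ER chaperones, 0.12 for heat shock, 0.31 for CLK, 1.45 for CXCL, 0.40 for GADD, 0.82 for IFI, -0.34 for PTK and -0.26 for TENT. The authors' deposited table, with intensity medians set equal over arrays, shifted all genes by -0.247, and gave 95 higher and 354 lower probes, or 122 and 70 with the median difference of all probes subtracted. Its medians, relative to that shift, were 1.62 for antiviral effectors and IFIT, 0.59, 0.33 and 1.06 for other interferon-stimulated genes, sensors and chemokines, 0.38 for cytokines, 0.25 for immediate-early genes, 0.28 for EGF and MET, 0.34 for proteases, 0.33 for ER chaperones, 0.12 for heat shock, 0.32 for CLK, 1.27 for CXCL, 0.10 for DKK, 0.26 for DNAJB, 0.48 for GADD, 0.85 for IFI, -0.33 for PTK, 0.24 for SCAMP and -0.31 for TENT. Without background correction, antiviral effectors lay at 1.24, chemokines at 0.36, CXCL at 0.75 and IFIT at 1.23. The mean in place of the median gave 0.22 for sensors, 0.58 for chemokines, 0.28 for cytokines, 0.24 for NF-kB, 0.13 for disulfide isomerases, -0.16 for fatty acid synthesis, -0.22 for mitosis and 0.31 for the Dickkopf list. Median scaling gave 0.065 for MHC class I, -0.11 for oxidative phosphorylation, 0.11 for PDIA and 0.037 for SRP. For detection, requiring both arrays gave 0.95 for antiviral effectors and 0.42 for IFI, 3 SD of the blanks gave 1.45 for IFIT and -0.40 for PCBP, and no filter gave 0.14 for chemokines and 0.026 for EGF and MET. Without blocks 22 to 24, 1 probe was 2-fold lower, TENT turned to 0.002, and medians were 0.033 for GJB, -0.049 for HMGB, 0.42 for IFI, 0.80 for IFIT, -0.08 for PRRC and -0.021 for TPM and UQCC. Without rows 1 and 2, chosen after seeing the data like the centred table, 25 probes were higher and 5 lower, and medians were 0.82 for antiviral effectors, 0.81 for chemokines, -0.24 for cholesterol, 1.40 for CXCL, -0.16 for HMGB, -0.057 for HMGN, 0.24 for IFI, 0.81 for IFIT and -0.029 for TENT. Fewer genes remain there; any other cause was not tested. Of 560 recomputed values of single probes, 12 fell under 2-fold, among them GADD45A, HCRTR1, TNFAIP3 and PFDN6. The 560 include settings that only change which probes are counted, where a kept probe has its main value by construction. No paired analysis was possible because each group has 1 array, and leaving out a replicate was not possible for the same reason. Signals close to the blanks limit the dim probes.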
